A study of Mus musculus with 6 samples.

Results

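Claudins and tight junction proteins were followed through the mammary cycle in Brca1 mutant and control mice as 8 genes: the claudin genes Cldn1, Cldn3, Cldn4, Cldn5, Cldn7 and Cldn8, the occludin gene Ocln and Tjp1, which encodes the scaffold protein ZO-1. They were chosen by name, with earlier results of these data known, as all probe sets whose only gene symbol was 1 of these. This gave 15 probe sets for 8 of the 18193 genes on the array, with 4 probe sets each for Cldn1 and Cldn3, 2 for Ocln and 1 for each of the others. A filter on dim signals passed 12 of the 15 probe sets and at least 1 for every gene, so all 8 genes were tested. The 3 probe sets that did not pass all belong to Cldn1.

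Tight junctions are the seals that run around the top of epithelial and endothelial cells and set what passes between neighbouring cells. Claudins are membrane proteins whose mix in the strand sets its tightness and its choice of ions, occludin is a membrane protein of the same strands, and ZO-1 ties the strands to the actin skeleton. In the mammary gland the junctions between milk-secreting cells are leaky in pregnancy and close around birth, when secretion of milk into the lumen begins.

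Each of 6 female mice of mixed 129/FVB/Black Swiss descent gave total RNA of the whole mammary gland for 1 array, as 1 mutant and 1 control at each of 3 stages, in a search for genes regulated by Brca1. The virgin mutant was Brca1 D11/D11;p53+/- and the virgin control Brca1 D+/+;p53+/-, both 6 months old. The pregnant mutant was Brca1 co/co with MMTV-Cre and the pregnant control Brca1 +/co with MMTV-Cre, both 5 months old and at day 16.5 of pregnancy. The lactating mutant was Brca1 D11/D11;p53+/- and the lactating control Brca1 D+/+;p53+/-, both 2 months old and at day 1 of lactation. Mutants and controls of the virgin and lactating pairs thus all carry p53+/-, and both pregnant mice carry Cre. In the pregnant mutant the conditional allele, written co, is deleted only where the mouse mammary tumour virus promoter drives Cre, and the control carries 1 conditional copy. The series' design text gives the D11 genotype for all mutants, and the sample labels were followed here. With 1 mouse per group, p-values measure only the spread between these 6 samples. Stage goes with age and, for the pregnant pair, with genotype, and the titles of the lactating arrays carry another date than the other 4, so these cannot be told apart from stage. RNA quality moved with stage too, as the control ratios given next show, and its part in the differences from virgin glands was not tested. In RNA from a whole gland, fewer cells of a type and less RNA per cell cannot be told apart either.

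The deposited values are MAS5 signals, the brightness of a probe set after the array software's summary, scaled to the same trimmed mean in all 6 arrays. The 2 lactating arrays had medians of 211 (mutant) and 231 (control), and the virgin and pregnant ones lay between 119.9 and 158. Control probe sets at the 3' and 5' ends of actin, whose ratio grows with RNA breakdown, gave 2.03 for the virgin mutant, 2.74 for its control, 1.43 and 1.37 for the pregnant pair, and 1.58 and 1.91 for the lactating pair, mutant before control. For Gapdh this ratio was 3.50 in the virgin control and at most 1.52 in the other 5 arrays. The virgin arrays thus had the highest actin ratios, and the virgin control had the highest of both. Some calls below were lost without the virgin control and some without arrays of lower ratios. The part of RNA quality in this was not tested. Brca1 itself, on the 1 of its 4 probe sets that passed the filter, read 486.5 in the virgin mutant against 137 in its control, 288 against 159 for the pregnant pair and 157 against 238 for the lactating pair. Which part of the transcript it reads was not known here, and it therefore does not check the labels. As a gauge of dark signal, 20 probe sets of Y-linked genes in these female glands had a median of 33.6, and 90% of their values were under 185.

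The promoters of the 5 genes that are compared most closely below are shown so that the family members that moved together can be set beside those that did not. Each is the stretch of 250 bases before the RefSeq transcription start on GRCm38.p6, read 5′ to 3′ on the gene's strand. Cldn3 (plus strand) is chr5:134985964-134986213, Cldn4 (minus) chr5:134946935-134947184, Cldn7 (plus, the first of its 2 listed starts) chr11:69964529-69964778, Ocln (minus, the first of its 2 starts) chr13:100552719-100552968 and Cldn5 (plus) chr16:18776597-18776846. Capitals mark matches on either strand to 3 motifs that were searched, the Grainyhead-like motif AACCNGTT, the E-box CACCTG bound by Snail and Zeb proteins and the Stat5 motif TTCNNNGAA, where N is any base. No match overlapped another.
Cldn3: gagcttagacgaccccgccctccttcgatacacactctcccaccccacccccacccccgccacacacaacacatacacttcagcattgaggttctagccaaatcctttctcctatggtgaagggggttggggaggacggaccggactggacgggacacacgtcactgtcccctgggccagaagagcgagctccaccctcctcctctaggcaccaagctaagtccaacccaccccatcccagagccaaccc
Cldn4: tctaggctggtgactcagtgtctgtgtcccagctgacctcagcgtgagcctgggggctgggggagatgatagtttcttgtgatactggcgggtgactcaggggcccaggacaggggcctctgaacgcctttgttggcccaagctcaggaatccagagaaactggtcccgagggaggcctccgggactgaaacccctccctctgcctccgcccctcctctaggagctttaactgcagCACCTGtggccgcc
Cldn7: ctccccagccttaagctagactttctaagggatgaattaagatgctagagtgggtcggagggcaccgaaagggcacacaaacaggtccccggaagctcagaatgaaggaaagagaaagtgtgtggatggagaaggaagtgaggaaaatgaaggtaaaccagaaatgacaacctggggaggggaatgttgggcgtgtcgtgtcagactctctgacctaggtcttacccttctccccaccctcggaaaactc
Ocln: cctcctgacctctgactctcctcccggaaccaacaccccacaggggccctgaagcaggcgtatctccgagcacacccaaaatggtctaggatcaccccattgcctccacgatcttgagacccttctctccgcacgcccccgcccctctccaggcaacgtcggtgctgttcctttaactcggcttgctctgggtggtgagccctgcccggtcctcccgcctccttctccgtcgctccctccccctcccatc
Cldn5: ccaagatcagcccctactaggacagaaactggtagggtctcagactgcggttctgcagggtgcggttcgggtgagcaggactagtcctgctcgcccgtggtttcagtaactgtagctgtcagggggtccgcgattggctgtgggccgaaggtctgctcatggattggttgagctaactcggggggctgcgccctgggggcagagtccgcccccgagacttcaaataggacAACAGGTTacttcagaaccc
Of 32851 RefSeq promoter windows of this length, 1.79% held the Grainyhead-like motif, 17.2% the E-box and 7.02% the Stat5 motif. Cldn5 held AACAGGTT 20 bases before its start, and Cldn4 held CACCTG 14 bases before its start. Cldn3 and the first starts of Cldn7 and Ocln held none of the 3, and neither did Cldn1. The window searched for Tjp1, chr7:65371245-65371494 (minus strand), held none either. It belongs to a start inside the gene, which runs to 65527850, and the stretch before the outer end was not searched. The second start of Cldn7 had E-boxes 97 and 57 bases upstream and TTCTGAGAA 185 bases upstream, and the second start of Ocln had E-boxes 213 and 68 bases upstream. A match is only a stretch of letters in the window. Cldn3 (chr5:134986214-134987476) and Cldn4 (chr5:134945123-134946934) are neighbours, 39.3 kb apart with 0 genes listed between them. The others lie at chr16:26356645-26371839 (Cldn1), chr16:18776847-18778262 (Cldn5), chr11:69964779-69967886 (Cldn7), chr16:88560826-88563183 (Cldn8), chr13:100496504-100552718 (Ocln) and chr7:65296165-65527850 (Tjp1).

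The first question was how these genes differ between stages. Lactating glands had higher Cldn8, Cldn7, Cldn3 and Ocln than virgin glands, by log2 ratios between 1.21 and 3.34 at the deposited scaling. Cldn7 and Cldn8 were already higher in pregnant than in virgin glands, and Cldn5, the claudin of blood vessels, was higher in lactating than in pregnant glands. Ratios are taken on log2(signal + 52.1), which understates the change of dim genes, and each stage has 2 arrays. Genes were called with limma at an adjusted p under 0.05 over 11341 tested genes. These stages differed across much of the array: 52% of all tested genes were called between lactating and virgin glands, 23.8% as higher and 28.2% as lower, and 4 of the 8 junction genes were called, all 4 as higher. Between pregnant and virgin glands 14.7% of all genes were called, 6.61% as higher and 8.09% as lower, and 2 of the 8 junction genes, both as higher. Between lactating and pregnant glands 31.9% of all genes were called, 14.9% as higher and 17% as lower, and 1 of the 8, as higher. The median log2 ratio of the 8 genes was 1.00 for lactating against virgin, where that of all tested genes was -0.10. It was 0.73 for pregnant against virgin, beside -0.06 for all genes, and 0.28 for lactating against pregnant, beside -0.04.

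**Figure D1:**
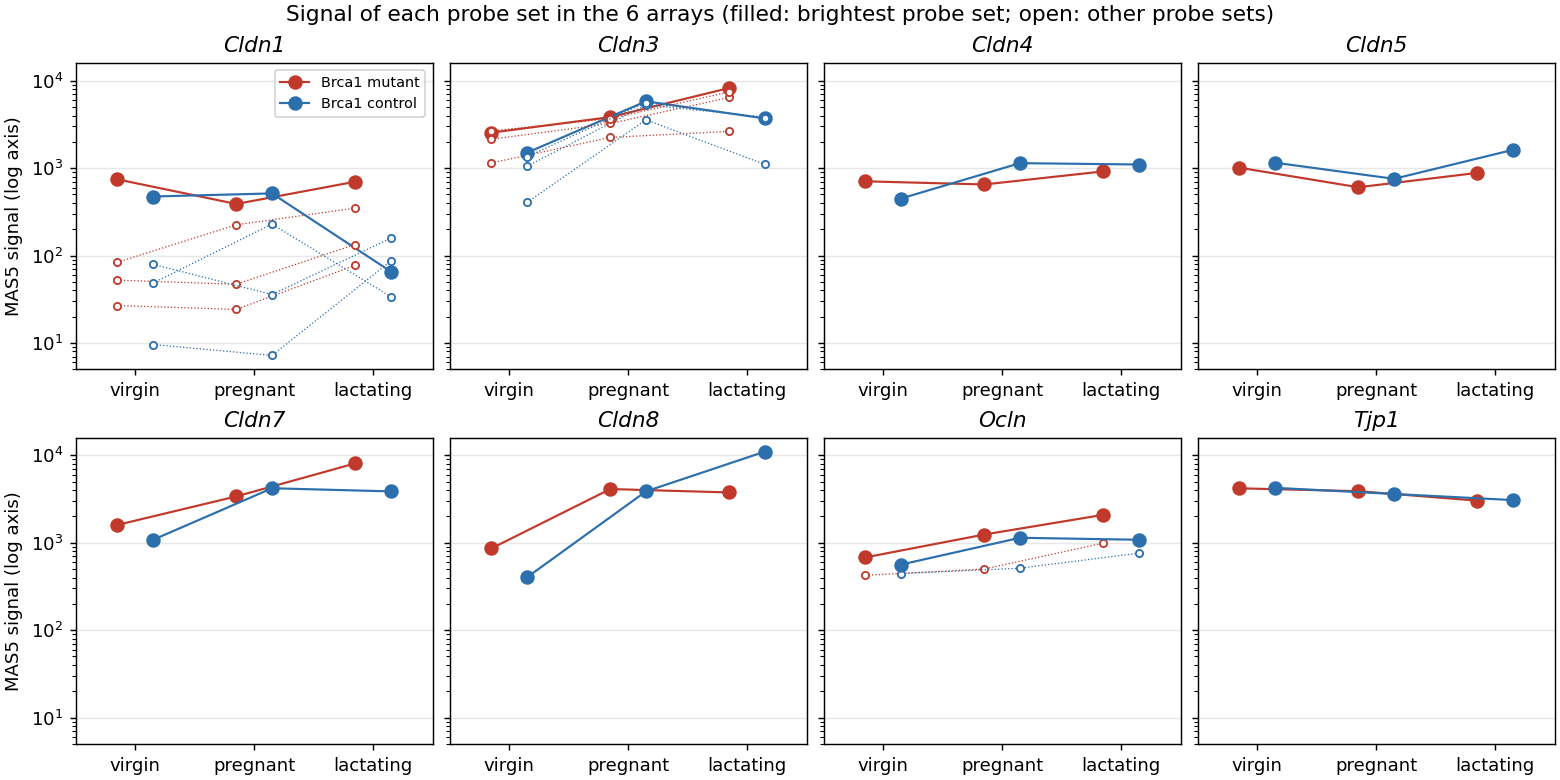
MAS5 signal (log axis) of all 15 probe sets in the 6 arrays, by stage, with mutants in red and controls in blue and 1 point per array; filled points are the probe set used for the gene and open points its other probe sets. Cldn8 and Cldn7 are brighter in all 4 pregnant and lactating arrays than in both virgin arrays, and Cldn1 on its brightest probe set drops to 65.5 in the lactating control alone.

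Cldn8, a claudin known from tight epithelia such as the collecting duct of the kidney, had the largest stage difference of the 8 genes. Its signal was 861 and 402 in the virgin mutant and control, 4116 and 3870.3 in the pregnant mutant and control, and 3762 in the lactating mutant against 11039 in its control. All 4 pregnant and lactating arrays lay above both virgin arrays, and the lactating pair was far apart. The log2 ratio was 3.34 ± 0.50 for lactating against virgin (SE; limma adjusted p = 0.00155) and 2.65 ± 0.50 for pregnant against virgin (adjusted p = 0.0159). For lactating against pregnant it was 0.69 ± 0.50 (adjusted p = 0.324), with a 95% interval of -0.49 to 1.86, and the arrays of these stages overlapped. It was called without the lactating mutant (1.73, adjusted p = 0.00751). Without the virgin control the pregnant ratio fell to 1.78 and was not called (adjusted p = 0.0969).

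Cldn7, an epithelial claudin that also lines the sides of cells, had signals of 1599.6 and 1080.4 in the virgin mutant and control. It gave 3389.8 and 4202 in the pregnant mutant and control, and 8088 in the lactating mutant against 3869 in its control. Again both virgin arrays were the lowest, and the lactating control lay between the pregnant arrays. The log2 ratio was 2.05 ± 0.31 for lactating against virgin (limma adjusted p = 0.00151) and 1.48 ± 0.31 for pregnant against virgin (adjusted p = 0.0208). It was 0.56 ± 0.31 for lactating against pregnant (adjusted p = 0.195), and was called without the pregnant control (1.11, 0.0476) or the lactating control (1.03, 0.0453). The pregnant call was lost without the virgin mutant (1.57, adjusted p = 0.0600), without the virgin control (1.40, 0.136) and without the pregnant control (0.93, 0.147), each p from a fit on the 5 remaining arrays.

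Cldn3, a sealing claudin of many epithelia, was read by 4 probe sets that could be compared with one another. On the brightest, the signal was 2549 and 1503 in the virgin mutant and control, 3841 and 5819 in the pregnant pair, and 8263 and 3704 in the lactating pair, mutant before control. No virgin array reached the level of a pregnant or lactating array. The log2 ratio for lactating against virgin was 1.47 ± 0.38 (limma adjusted p = 0.0135) and that for pregnant against virgin 1.25 ± 0.38 (adjusted p = 0.0645), so only lactation was called. Fitted on their own, all 4 probe sets were called for lactating against virgin, with ratios from 1.25 to 1.69 and adjusted p from 0.00673 to 0.0463, where 52.1% of 19481 probe sets were called. Those of the 4 ending in _x_at, among them the one with 1.69, can bind related transcripts. On the dimmest of the 4 the virgin mutant, at 1147, read above the lactating control, at 1103. For pregnant against virgin the 4 ratios ran from 1.24 to 1.96 and 2 probe sets were called, where 15.2% were called in all. For lactating against pregnant the dimmest of the 4 gave -0.71 and the other 3 gave 0.21 to 0.26, none of them called, and centring the arrays turned the brightest to -0.19. Without the pregnant mutant the pregnant ratio was called (2.02, adjusted p = 0.00678). The lactation call was lost without the virgin control (1.24, adjusted p = 0.0899) and without the lactating mutant (0.94, 0.0730).

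Ocln, which encodes occludin, had signals of 679.7 and 563 in the virgin mutant and control on its brighter probe set. It gave 1242 and 1139.6 in the pregnant pair and 2086 and 1082 in the lactating pair, mutant before control. The virgin arrays were the lowest and the lactating mutant the highest. Its log2 ratio was 1.21 ± 0.24 for lactating against virgin (limma adjusted p = 0.00519), and 0.89 ± 0.24 for pregnant against virgin, where the adjusted p was 0.0500023 and thus not under the threshold. The dimmer probe set gave 423 and 444 in the virgin pair, 501 and 511 in the pregnant pair and 989.7 and 759.9 in the lactating pair. On that probe set only the lactating arrays stood out: 0.92 ± 0.23 for lactating against virgin (adjusted p = 0.0114), 0.72 ± 0.23 for lactating against pregnant (0.0464, where 32% of probe sets were called) and 0.20 ± 0.23 for pregnant against virgin (0.592). The 2 probe sets thus agree on lactation against the virgin gland and place the step at different stages.

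Cldn5, the main claudin of blood vessels and best known from the blood-brain barrier, ran differently. It gave 1012 and 1155 in the virgin mutant and control, 605 and 755 in the pregnant pair, and 883 and 1620.1 in the lactating pair. Both pregnant arrays were the lowest of the 6. The log2 ratio was 0.78 ± 0.23 for lactating against pregnant (limma adjusted p = 0.0373), -0.64 ± 0.23 for pregnant against virgin (adjusted p = 0.105) and 0.14 ± 0.23 for lactating against virgin (adjusted p = 0.626), which turned to -0.45 after centring. The call for lactating against pregnant was lost with no variance trend (adjusted p = 0.0522), with no genotype term (0.0633), and without the pregnant mutant (0.89, adjusted p = 0.117), the pregnant control (0.67, 0.213) or the lactating control (0.48, 0.203).

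Cldn4, which like Cldn3 is a receptor for an enterotoxin of Clostridium perfringens, gave 707.5 and 449.6 in the virgin mutant and control. It gave 651 and 1141 in the pregnant pair and 919 and 1101 in the lactating pair, mutant before control, so that pregnant and virgin arrays overlapped. Its log2 ratio was 0.78 ± 0.32 for lactating against virgin (adjusted p = 0.0735) and 0.57 ± 0.32 for pregnant against virgin (adjusted p = 0.263). Without the virgin mutant the lactating ratio was 1.33 and was called (0.0142). Cldn1, a sealing claudin needed for the water barrier of mouse skin, gave 744.6 and 473.8 in the virgin pair, 389 and 514 in the pregnant pair and, in the lactating pair, 700.3 (mutant) and 65.5 (control). The lactating control was the low array, and with it left out the ratio for lactating against virgin turned from -1.12 ± 0.61 (adjusted p = 0.157) to 0.16 (0.743). Without the lactating mutant the same ratio was -2.40 (0.00155).

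Tjp1, whose product ZO-1 is shared by tight junctions of all kinds, had the narrowest range. Its signal was 4194 and 4249 in the virgin mutant and control, 3891 and 3614 in the pregnant pair and 3030 and 3077 in the lactating pair. Both lactating arrays were the lowest. The log2 ratio was -0.46 ± 0.18 for lactating against virgin (adjusted p = 0.0636), with a 95% interval of -0.88 to -0.04 before adjustment. It was -0.17 ± 0.18 for pregnant against virgin (adjusted p = 0.567) and -0.29 ± 0.18 for lactating against pregnant (adjusted p = 0.245).

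**Figure D2:**
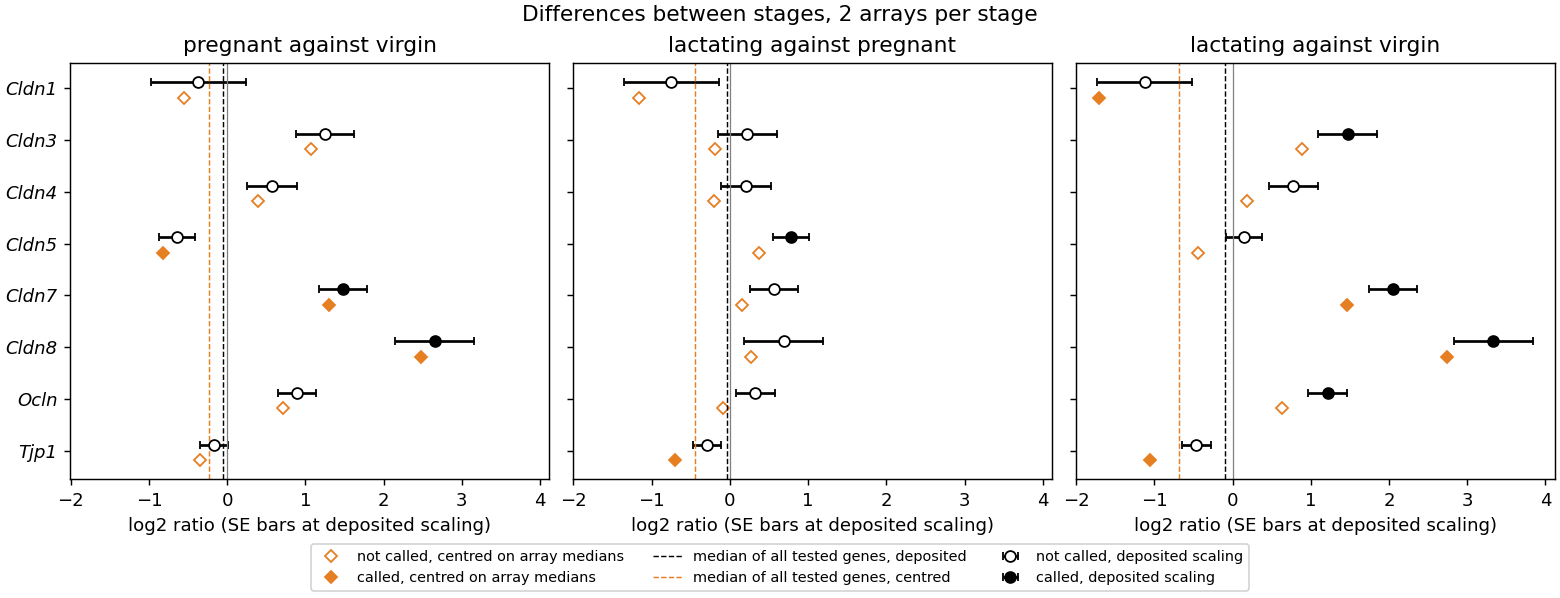
Log2 ratios of the 8 genes between stages, 2 arrays a stage, at the deposited scaling (circles with SE bars) and after each array was centred on its median (diamonds); filled symbols are called at a limma adjusted p under 0.05 and dashed lines mark the median of all tested genes. Cldn7 and Cldn8 are filled at both scalings for pregnant and for lactating against virgin, while Cldn3 and Ocln lose the call for lactating against virgin after centring.

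How the arrays were put on 1 scale bears on these calls, since the lactating arrays had the highest medians. Centring each array on its median moved the median ratio of all tested genes for lactating against virgin to -0.68, beside -0.10 at the deposited scaling. It called 60.9% of all genes there, 18.8% of them as higher, beside 45.8% at the deposited scaling. For lactating against pregnant it called 40.1%, of which 16.7% were higher, beside 46.8%, with a median of -0.45. For pregnant against virgin it called 16.9%, of which 27.8% were higher, beside 45.0%, with a median of -0.23. After centring, Cldn8 and Cldn7 were still called higher in lactating than in virgin glands, at 2.75 and 1.46. Cldn3 at 0.89 (limma adjusted p = 0.0798) and Ocln at 0.63 (0.0864) were not. Tjp1 at -1.05 (0.00413) and Cldn1 at -1.71 (0.0355) were called lower there. Centring also called Tjp1 lower in lactating than in pregnant glands (-0.70, 0.0381) and Cldn5 lower in pregnant than in virgin glands (-0.82, 0.0449), and it ended the call of Cldn5 for lactating against pregnant (0.37, 0.229).

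The second question, put by the design, was whether mutant and control glands differ. Over the 3 pairs, none of the 8 genes was called with limma, and neither was any of the 11341 tested genes (0%). The fit takes 1 common difference over pairs with unlike Brca1 alleles, D11 in the virgin and lactating pairs and conditional in the pregnant pair. At an unadjusted p under 0.05, 1 of the 8 genes and 4.71% of all genes passed, and that gene was Cldn5. Its log2 ratio was -0.44 ± 0.19 (SE; limma adjusted p = 0.932). It was lower in the mutant of all 3 pairs, as were 10.6% of all genes. Ocln was the gene higher in all 3 mutants, at 0.43 ± 0.20 (adjusted p = 0.932), as were 15.3% of all genes. Cldn1 stood at 0.97 ± 0.50, Cldn3 at 0.43 ± 0.31 and Cldn7 at 0.43 ± 0.25 (adjusted p = 0.932 each). Cldn4 had a ratio of -0.14 ± 0.26 (adjusted p = 0.971) and Cldn8 one of -0.15 ± 0.41 (0.981). Tjp1 had the narrowest 95% interval, -0.32 to 0.36 around 0.02, and Cldn1 the widest, -0.18 to 2.13. The fit allowed log2 differences of up to 1.15 for Cldn3, 1.02 for Cldn7 and 0.89 for Ocln, so an absence of difference is not shown for these. Without the pregnant pair the ratios were 1.64 for Cldn1, 0.94 for Cldn3, 0.80 for Cldn7, 0.17 for Cldn4 and -0.51 for Cldn5.

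The pairs themselves differed more than the fit over all 3 conveys. Within a stage there is 1 mutant and 1 control array, so the ratios are values with no test. In the lactating pair Cldn1, Cldn3 and Cldn7 were at least 2-fold higher in the mutant and Cldn8 at least 2-fold lower, which makes 4 of the 8 genes, where 6.38% of all tested genes passed 2-fold, 3.62% as higher and 2.77% as lower. In the virgin pair 1 of the 8, Cldn8, passed 2-fold as higher, where 2.71% of all genes passed and 1.53% as higher, and in the pregnant pair 0 of the 8, where 1.95% did. The median size of the log2 ratio, whatever its sign, was 0.57 over the 8 genes in the virgin pair, beside 0.23 over all genes. It was 0.30 beside 0.21 in the pregnant pair and 0.98 beside 0.29 in the lactating pair.

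In the lactating pair the brightest probe set of Cldn1 read 700.3 in the mutant and 65.5 in the control, a log2 ratio of 2.68 at the pseudocount of 52.1 and of 1.89 at one of 168.7. A further probe set of Cldn1, which did not pass the filter, read 349 in the lactating mutant and 33.8 in the lactating control. Both control readings lay under the 185 that 90% of the Y-linked values stay below, so the size of the difference is not fixed. The other 2 probe sets of Cldn1 read 77.5 and 133.8 in that mutant and 86.8 and 158.4 in that control, so they did not share the difference. Across all 6 arrays these 2 read between 7.2 and 158, which is in the range of the Y-linked probe sets too. The log2 ratio of the brightest probe set was 0.60 in the virgin pair and -0.36 in the pregnant pair.

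Cldn8 went opposite ways in the virgin and lactating pairs, with log2 ratios of 1.01 in virgin, 0.09 in pregnant and -1.54 in lactating glands. It ranked 167th from the highest of 11341 genes in the virgin pair and 85th from the lowest in the lactating pair. Cldn3 stood at 0.74 (virgin), -0.59 (pregnant) and 1.15 (lactating), and its other 3 probe sets had the same signs, at 0.95 to 1.39, -0.70 to -0.60 and 0.74 to 1.22. Cldn7 shared that order of signs at 0.54, -0.31 and 1.05. Cldn1, Cldn3 and Cldn7 were thus higher in the virgin and lactating mutants and lower in the pregnant mutant, an order seen in 14.1% of all tested genes.

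Cldn4 lay at 0.60 (virgin), -0.76 (pregnant) and -0.25 (lactating). Ocln lay at 0.25, 0.12 and 0.92 over the same order of stages, and its other probe set at -0.06, -0.03 and 0.36, so the 2 probe sets of Ocln differ in sign in the virgin and pregnant pairs. Cldn5 lay at -0.18, -0.30 and -0.84, and Tjp1 at -0.02, 0.11 and -0.02. In the lactating pair, then, the mutant was high for Cldn1, Cldn3, Cldn7 and Ocln and low for Cldn8 and Cldn5.

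**Figure D3:**
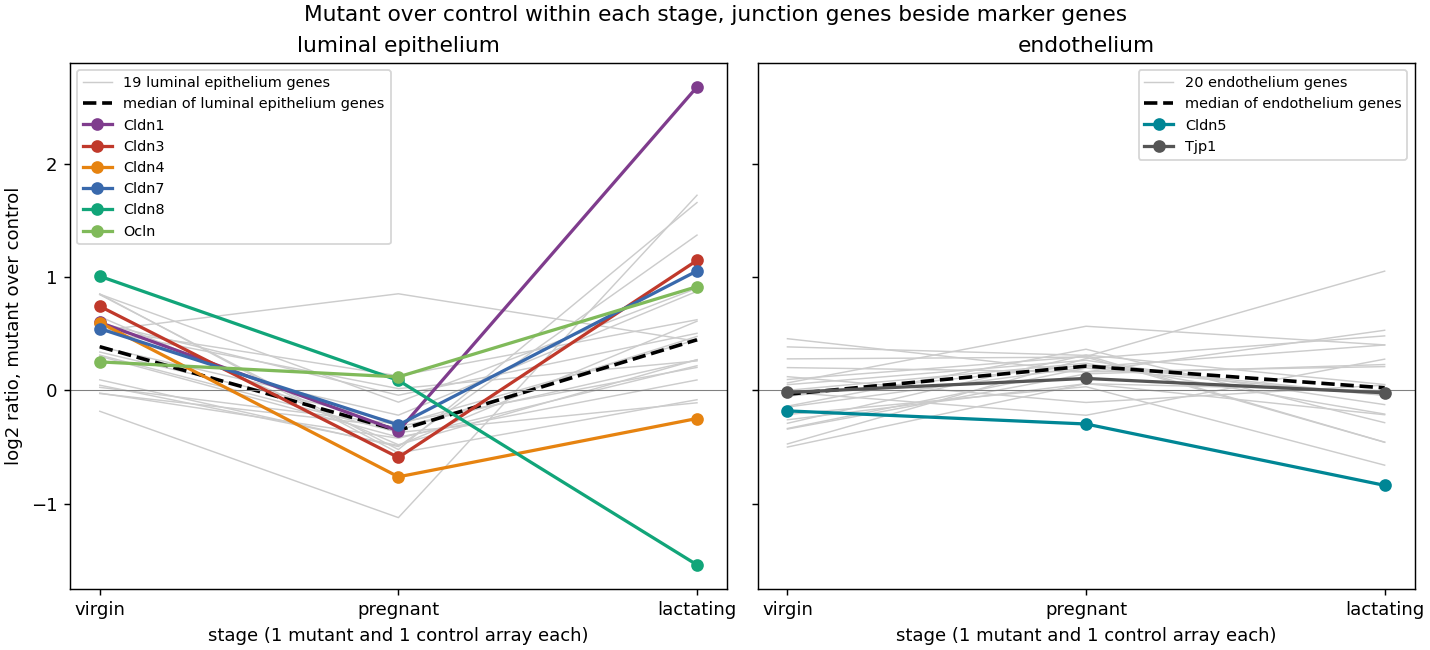
Log2 ratio of mutant over control within each stage, 1 mutant and 1 control array each, for the 8 genes (coloured) and for marker genes of luminal epithelium (left) and endothelium (right, grey), with the marker median dashed. The luminal median shares the order higher, lower, higher with Cldn1, Cldn3 and Cldn7, an order that not every single marker follows. In the lactating pair Cldn8 lies below every luminal marker.

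As a list, markers of luminal epithelium, the layer whose cells secrete milk, moved in the same order within the pairs. Not every single marker followed that order. The list of 19 genes, which holds none of the 8, had a median log2 ratio of 0.39 in the virgin pair, -0.35 in the pregnant pair and 0.45 in the lactating pair, with 16, 3 and 17 of the 19 higher in the mutant. Their summed signal was 68330 in the mutant and 56931 in the control of the virgin pair, 78180 and 100052 in the pregnant pair, and 128773 and 93221 in the lactating pair. Basal and myoepithelial markers had medians of 0.21, -0.15 and 0.40 over 11 genes, and milk proteins 0.41, -0.49 and 0.10 over 8 genes. After quantile normalization the medians of the milk proteins were 0.32, -0.05 and -0.01. The 3'/5' ratios were nearest to each other in the pregnant pair, and their part in these ratios, like that of the share of luminal cells, was not tested. Endothelial markers, set beside Cldn5, had medians of -0.03, 0.21 and 0.02 over 20 genes, with 9, 18 and 10 of the 20 higher in the mutant. Cldn5 stood at -0.84 in the lactating pair, where the endothelial median was 0.02.

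**Figure D4:**
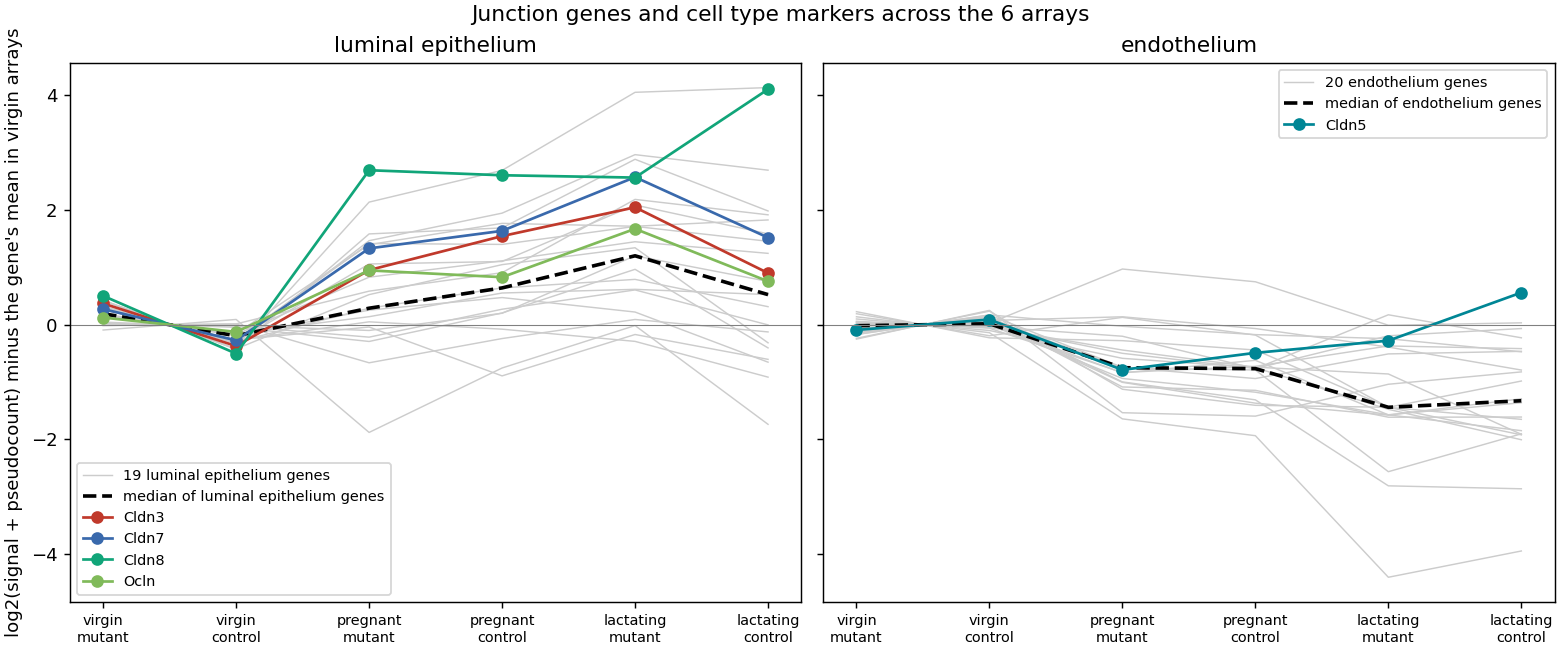
Log2(signal + 52.1) of Cldn3, Cldn7, Cldn8 and Ocln beside 19 luminal markers (left) and of Cldn5 beside 20 endothelial markers (right) in the 6 arrays, each gene set to 0 at its mean over the virgin arrays; dashed lines are the marker medians. The 4 epithelial genes drawn are those called higher in lactating than in virgin glands. They lie above the luminal median in all 4 pregnant and lactating arrays, which that choice favours. Cldn1 and Cldn4 are not drawn. Cldn5 lies above the endothelial median in both lactating arrays.

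Between stages, 9 of the 19 luminal markers were called higher and 1 lower in lactating than in virgin glands, where 52% of all tested genes were called, with a median log2 ratio of 0.57. Muc1, a mucin of the luminal surface, had 4.09, St14 and Spint1, a membrane protease and its inhibitor, 2.83 and 2.43, and the transcription factor Elf3 2.05. The transcription factor Ehf was the lower one, at -0.60. The ratios of Muc1, St14, Spint1 and Elf3, the 4 largest of the list, lie in the range of the called junction genes or above it. The 9 luminal markers that were not called had ratios from -0.88 to 0.57, all below that range. For pregnant against virgin 7 of the 19 were called, all higher (median 0.47), where 14.7% of all genes were called. Of the 19, 5 were called, all higher (0.32), for lactating against pregnant, where 31.9% of all genes were called. After centring, the luminal medians were -0.02 for lactating against virgin (8 higher, 3 lower), 0.29 for pregnant against virgin (6 higher) and -0.09 for lactating against pregnant (2 higher, 2 lower). In the same order, centring called 60.9%, 16.9% and 40.1% of all genes, of which 18.8%, 27.8% and 16.7% were higher. Of 11 basal markers, 6 were higher and 1 lower for lactating against virgin (median 0.63), 5 were higher for pregnant against virgin (0.55) and 1 for lactating against pregnant (-0.05). Of 8 milk proteins 5, 5 and 2 were higher for lactating against virgin, pregnant against virgin and lactating against pregnant, with medians of 1.71, 1.61 and 0.10, the last of which turned to -0.31 after centring.

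For lactating against pregnant, where Cldn5 was called higher, 8 of 20 endothelial markers were called lower and 0 higher, with a median of -0.56. Of all tested genes 17% were called lower there and 14.9% higher. After centring 12 of the 20 were called lower, where 40.1% of all genes were called, 16.7% of them as higher. At the deposited scaling, ratios above 0 were seen in 5 of the 20, none of them called, among them the endothelial cadherin gene Cdh5 at 0.63. Von Willebrand factor (Vwf) fell by 2.39, the adhesion molecule Icam2 by 1.68, the transcription factor Erg by 1.46 and Pecam1 by 1.19 on the log2 scale. For lactating against virgin 13 of the 20 (median -1.41) and 28.2% of all genes were called lower, where Cldn5 had 0.14. For pregnant against virgin 9 were called lower and 1 higher (-0.75), where Cldn5 had -0.64. Of all genes 8.09% were called lower and 6.61% higher there. The summed endothelial signal was 18165 and 19570.4 in the virgin mutant and control, 11438 and 9995 in the pregnant pair and 8057 and 7733 in the lactating pair.

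Other tissue in the glands changed with stage as well. All 9 lymphocyte markers were called lower in pregnant than in virgin glands (median -2.22), 2 of 9 in lactating than in pregnant glands (-0.27), and all 9 in lactating than in virgin glands (-2.22). Of 10 adipocyte markers 3, 6 and 7 were called lower in those comparisons, with medians of -0.66, -1.04 and -2.37. Over all tested genes and in the same order, 8.09%, 17% and 28.2% were called lower, and 6.61%, 14.9% and 23.8% higher. All 12 skeletal muscle markers were higher in pregnant than in virgin glands, where their summed signal was 193602 and 170311 in the pregnant mutant and control and 15936 and 45111 in the virgin mutant and control. In lactating glands 9 of the 12 were lower than in pregnant glands (median -1.32) and 9 higher than in virgin glands (1.76). Of 12 skin keratinocyte markers 4 were tested, and 1, the cornified envelope protein Lor, was higher in lactating glands, by 1.55 against virgin and 1.11 against pregnant glands, the second of which was not called after centring. In none of these lists was a gene called between mutant and control. Within the virgin, pregnant and lactating pairs the medians were 0.54, 0.38 and 0.16 for lymphocytes, 0.02, -0.20 and -0.44 for adipocytes, -1.29, 0.22 and -0.15 for muscle and -0.15, 0.65 and 0.63 for the 4 skin genes. The part of these tissues in the values of the 8 genes was not tested.

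The rest of the tight junction was read from a list of 34 further symbols of partners and regulators, of which 30 were measured and 29 tested. Between mutant and control 0 of the 29 were called, with a median ratio of 0.07. For lactating against virgin 8 were called higher and 4 lower, with a median of 0.28, and 52% of all tested genes were called there. After centring, where 60.9% of all genes were called and 18.8% of those as higher, 4 partners were called higher and 13 lower. Their median was then -0.31, beside -0.68 for all genes. Among the higher ones were Crb3, an apical polarity protein, at 2.43 ± 0.31 (limma adjusted p = 0.000787), Marveld3, a relative of occludin, at 1.58 ± 0.23 (0.00127), and Lsr, a protein of corners where cells meet, at 1.46 ± 0.30 (0.00534). Prkci, an atypical protein kinase C of the polarity complex, was called as well (0.00709), but its virgin signals, 175 for the mutant and 21 for the control, were in the range of the Y-linked probe sets, so its ratio has no fixed size. These 4 were the ones still called higher after centring. The 4 lower ones were Mpdz, a scaffold also known as MUPP1, at -2.51 ± 0.29 (0.00058), the virus receptor and adhesion protein Cxadr at -1.26 ± 0.23 (0.00323), the paracingulin gene Cgnl1 at -1.05 ± 0.23 (0.0075) and Esam, an adhesion molecule of endothelium, at -0.93 ± 0.22 (0.00893).

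Crb3 rose between pregnancy and lactation. It read 326 and 194 in the virgin mutant and control, 313 and 497 in the pregnant pair and 1738 and 1450 in the lactating pair, and its ratio for lactating against pregnant was 1.87 ± 0.31 (adjusted p = 0.00623). Marveld3 read 495 and 599 in the virgin pair, 981 and 1322 in the pregnant pair and 1892 and 1585 in the lactating pair. Mpdz read 1596 and 2921 in the virgin pair, 1342 and 1136 in the pregnant pair and 358 and 318 in the lactating pair. In each of these 3 genes both lactating arrays lay outside the range of the other 4. Prkci read 571 and 752 in the lactating mutant and control.

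For pregnant against virgin 3 partners were called higher and 2 lower, with a median of 0.31, where 14.7% of all genes were called. After centring 1 was called higher and 2 lower, where 16.9% of all genes were called, 27.8% of them as higher. At the deposited scaling the angiomotin gene Amot had 1.13, Marveld3 1.00 and Tjp3, which encodes ZO-3, 0.82, while Amotl2 had -0.86 and Esam -0.83. Besides Crb3, lactating against pregnant called Mpdz at -1.72 and Cxadr at -1.32, both lower (median -0.05). These were 3 of 29, where 31.9% of all genes were called. After centring 1 was called higher and 9 lower, where 40.1% of all genes were called, 16.7% of them as higher. Of 17 other claudin symbols 14 were measured and 4 tested. The 4 were Cldn10, Cldn12, Cldn15 and Cldn22, and Cldn10, a pore-forming claudin, was the only 1 called at the deposited scaling, where their median was -0.27 for lactating against virgin. It read 599 and 474 in the virgin mutant and control, 165.5 and 165.6 in the pregnant pair and 182 and 132 in the lactating pair, at or under the 185 that 90% of the Y-linked values stay below in all 4 later arrays. Its log2 ratio was -1.43 ± 0.27 for pregnant against virgin (adjusted p = 0.0158) and -1.50 ± 0.27 for lactating against virgin (adjusted p = 0.00321), on a probe set that can bind related transcripts.

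**Figure D5:**
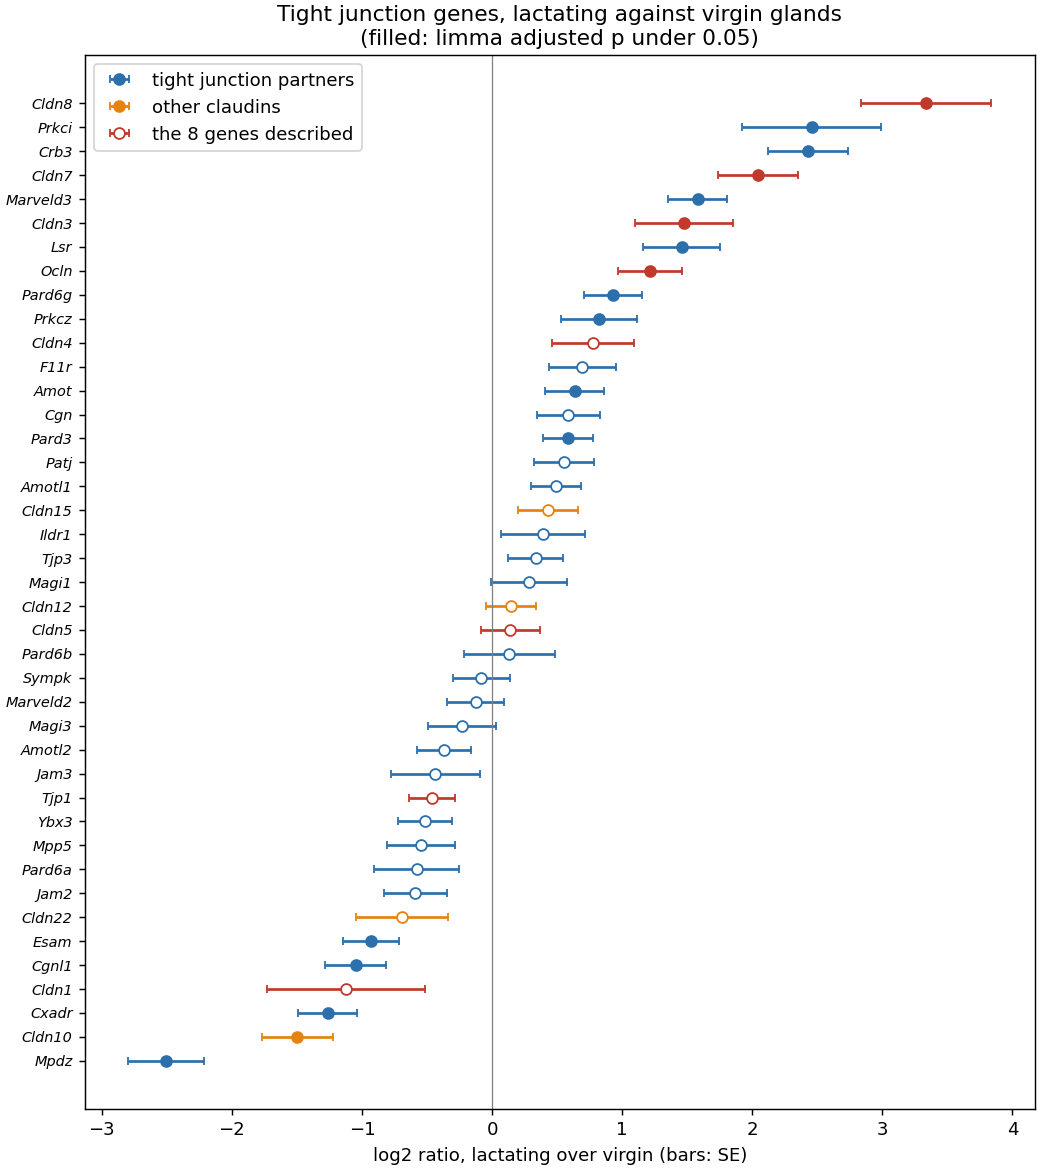
Log2 ratio of lactating over virgin glands (2 arrays each, bars are SE) for the 8 genes in red, 29 tight junction partners in blue and 4 other claudins in orange; filled points have a limma adjusted p under 0.05. Cldn8 has the highest ratio, at 3.34, and Mpdz the lowest, at -2.51.

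Over the 6 arrays Cldn3, Cldn7 and Ocln were most alike among the 8. Pearson's r of their log2 values was 0.98 for Cldn7 with Ocln, 0.97 for Cldn3 with Cldn7 and 0.94 for Cldn3 with Ocln. These are descriptions over 6 arrays that share stages and scaling. Tjp1 ran against Cldn7 with r = -0.87, and Cldn5 had r between -0.61 and 0.09 with the other 7. The closest genes given next are the highest of 1844 (for Cldn8) to 11248 (for Tjp1) candidates, so a high r was selected for. The gene most like Cldn7 on the array was Chid1 (r = 0.995), followed by Rhpn2 and the luminal marker Spint1 (0.991 each). For Cldn3 these were Rnf5 (0.992), Plpp2 (0.990) and Ssbp4 (0.988), and for Cldn8 Fam160a2 (0.993), the insulin receptor substrate Irs2 (0.992) and the sialyltransferase St3gal4 (0.991). For Cldn1, Helq (0.995), Pcbd1 (0.989) and Ltbp1 (0.986) came closest. These 3 read 240.2, 297 and 780.1 in the lactating mutant, against 35.6, 40.1 and 267 in the lactating control, the lowest of their 6 arrays. The genes most like Cldn4 were Rell1, Dnttip1 and Stx3 (0.969 to 0.981), those most like Cldn5 Uimc1, Adcy5 and Zfp512 (0.988 to 0.990), those most like Ocln Sf3b4, Map3k21 and Rbm15b (0.992 to 0.993), and those most like Tjp1 Kdm5a, Fmo1 and Selenot (all 0.998).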

How the data were processed

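Total RNA of whole mammary glands was labelled with biotin and hybridised to 1 array per mouse, per the labels. The authors deposited 1 linear intensity per probe set and array, summarised by MAS5 per the submitters' processing notes, which give no version. Leaving out 2% at each end, the mean was 500.002 or 500.003 for all arrays, so scaling had been done. Scanner-level files were not used here, so other background corrections were not tried, and the number of arrays limits the precision.

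Signals were turned into log2(signal + 52.1), 52.1 being the 25th percentile of all values. Of 45101 probe sets, 64 were array controls, 34945 had 1 symbol, 932 had several and 9160 are unnamed here. Each gene was represented by its single-symbol probe set with the highest mean, those ending in _x_at or _s_at only where there was no other, and genes whose mean log2 value was under 7.72, the median over probe sets, stayed out of the tests. limma 3.58.1 (R 4.3.3; eBayes with a trend, 2 residual and 5.54 prior degrees of freedom) was fitted to all 6 arrays with stage and genotype terms, so that mutant and control were compared with the stage as a block. P-values were adjusted by Benjamini-Hochberg over 11341 genes, or over 19481 probe sets where each was fitted alone. The code was tested on simulated data. Gene IDs of 18032 of 18193 genes, all 8 described here among them, matched RefSeq GRCm38.p6, the source of positions and promoters. The promoter source held no entry for Cldn8, so no sequence of that gene is shown.

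The 8 genes and all gene lists were chosen with earlier results of these data known, so lists are described by counts and medians with no test of their own. Named were all 8 genes and, of each list and comparison, up to 4 called genes in each direction with the largest ratios, some left out for brevity. Cdh5, outside that rule for lactating against pregnant, was named after its value was seen. The 3 genes most like each of the 8 were those with the highest r among genes with at least 0.5 times its SD. Alternatives covered scaling (quantile normalization, or centring on array medians), pseudocounts of 14.9 and 168.7, no filter or a stricter one (75th percentile), averaging all probe sets of a gene, fitting each alone, no variance trend, no stage or genotype term, and leaving out arrays, pairs or a stage. Figures were drawn with matplotlib 3.10.9.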

Additional observations from a re-analysis of the deposited data

Results flagged for a closer look

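Cldn8 went opposite ways in mutant and control glands of different stages. Its log2 ratio of mutant over control was 1.01 in virgin glands, with signals of 861 in the mutant and 402 in the control. In lactating glands it was -1.54, with 3762 in the mutant and 11039 in the control. Each value rests on 1 mutant and 1 control array, and the difference between the stages was not tested.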

How the results depend on the processing

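With 1 array per group, a single array decided many of the values, as listed here. Between mutant and control 0% of all tested genes were called in every alternative, so the count among the 8 could only be 0. For lactating against virgin the alternatives with all 6 arrays called 42.2% to 60.9% of all genes. For lactating against pregnant 30% of all genes were called with no variance trend and 33.4% with no genotype term. The counts of called genes among the 8 stayed at 0 for mutant against control in all 13 alternatives and at 3 to 5 for lactating against virgin in all 15, though not always with the same genes. There Cldn7 and Cldn8 were called in 15 of 15 alternatives, Ocln in 14 and Cldn3 in 12. For pregnant against virgin, Cldn8 was called in 14 of 15 and Cldn7 in 12. For lactating against pregnant, Cldn5 was called in 9 of 15. Without the lactating arrays 5 of the 8 genes were called for pregnant against virgin, and leaving out 1 array gave 0 to 3. For lactating against pregnant 0 were called with no variance trend and 0 with no genotype term, and leaving out 1 array gave 0 to 3. In that comparison 1138 of all genes were called without the pregnant mutant and 1390 without the pregnant control, beside 3614 with all arrays. For pregnant against virgin 2624 were called without the lactating arrays and 329 to 888 without 1 of its 4 arrays, beside 1667. Lactating against virgin called 3385 without the virgin control, beside 5895.

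After centring, the ratio turned to -0.0176 for Tjp1 in mutant against control, to -0.19 for Cldn3, -0.20 for Cldn4 and -0.0855 for Ocln in lactating against pregnant, and to -0.45 for Cldn5 in lactating against virgin. With the mean of its probe sets Cldn3 had -0.0042 for lactating against pregnant. Leaving out 1 pair gave mutant against control ratios of -0.51 to 0.17 for Cldn4, -0.73 to 0.55 for Cldn8 and -0.0202 to 0.0432 for Tjp1. Leaving out 1 array gave -1.37 to 0.63 for Cldn1 in pregnant against virgin. In lactating against pregnant it gave -2.03 to 0.53 for Cldn1, -0.54 to 0.99 for Cldn3, -0.26 to 0.68 for Cldn4, -0.36 to 1.73 for Cldn8 and -0.0388 to 0.69 for Ocln. In lactating against virgin it gave -2.40 to 0.16 for Cldn1 and -0.16 to 0.44 for Cldn5. Cldn1 was not tested under the 75th percentile filter or with the mean of its probe sets. The cause of these changes was not tested. The comparison of mutant and control already pairs the mice by stage. Without the stage block 0 of the 8 genes and 0% of all tested genes were called as well.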
